A study of Mus musculus with 4 samples.

Results

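The genes described here encode the intestinal machinery that senses and moves bile acids: 10 genes, which are the receptors Nr1h4 and Nr0b2, the carriers Slc10a2, Fabp6, Slc51a, Slc51b, Abcc2 and Abcc3, the hormone Fgf15 and the sterol hydroxylase Cyp27a1. They were chosen by symbol, taking all probe sets that the platform annotation assigns to exactly one of them. This found 9 probe sets, 1 for each of 9 genes, among 12393 genes with a probe set of their own. Slc51b was matched to no probe set in the annotation used and is not analysed here. Of the 9, 6 were bright enough to be tested and 3 (Nr0b2, Slc10a2 and Fgf15) were not.

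The measurements are from whole RNA of small intestine of 4 mice aged 1 month, 1 Affymetrix array each. The male null and the female null had the genotype HNF4 loxP/- with villin Cre, a recombinase driven by the villin promoter in gut epithelium. The strain label of the female null says HNF4 null, and its source gives that genotype. The female control was HNF4 loxP/+ with villin Cre, so it kept a wild-type allele and had the recombinase, while the male control was HNF4 loxP/- without Cre and shared the minus allele with the nulls. A floxed allele was common to all 4 animals. The labels give neither the HNF4 paralogue nor the segment of small intestine. Each group held 1 male and 1 female, and the 2 controls differed in genotype too. Unless sex is a block, the spread within groups therefore includes the gap between the sexes and between the control genotypes. The p-values here rest on that spread, pooled in part over all probe sets tested, and not on a spread between like animals. In a bulk sample, fewer cells of a type and less RNA per cell cannot be told apart.

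Median deposited intensities were 43.2 to 53.3, with the male null the lowest. It also took part in the lowest correlation between arrays, 0.927, which was with the female null. Hnf4a and Hnf4g, the candidate targets, differed by 0.23 (SE 0.22) and 0.16 (SE 0.21) between null and control on their brightest probe sets, on the scale of log2(intensity + 16), and the other 4 probe sets of these genes gave 0.08 to 0.32. No fall was measured in them, where the probes lie relative to the deleted part is not given in the sources used here, and they do not check the null labels. All 10 enterocyte markers with a probe set, out of 12 listed, were tested, and their summed intensity was 33706 to 35869 in the nulls and 36346 to 37912 in the controls. Hepatocyte markers (8 of 9 with a probe set) summed to 1243 to 1305 in the nulls and 1407 to 1474 in the controls, mostly from Cps1, an enzyme that enterocytes express too, while the liver's own Alb read 17.9 to 42.8. Of colonocyte markers, 5 of 6 had a probe set, summing to 401 to 784 in the nulls and 936 to 1001 in the controls. Car1, Aqp8 and Hoxb13 read at most 35.3, Slc26a3 was bright on all 4 arrays, and Car4 was bright on 3, reading 351 in the male null, 32.9 in the female null, 437 in the female control and 606 in the male control.

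Bile acids are made from cholesterol in the liver, released into the duodenum and recovered mainly in the ileum. There the sodium-dependent carrier Slc10a2 brings them across the brush border, the binding protein Fabp6 holds them in the cytosol, and the Slc51a and Slc51b proteins together let them out toward the portal blood. Bile acids in the enterocyte activate the nuclear receptor FXR, encoded by Nr1h4, which raises Fabp6, Slc51a, Slc51b, Nr0b2 and Fgf15, and Fgf15 travels to the liver to restrain bile acid synthesis. HNF4 and FXR are both nuclear receptors that bind repeats of related half-sites.

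Since the gene targeted by the labelled genotype encodes a DNA-binding factor, the 250 bases before the annotated start are shown for 4 members that the results below turn on: Nr1h4, with the lowest difference of the 6 tested, Slc51a and Abcc2, carriers of the 2 membranes of the enterocyte, and Slc10a2, the ileal carrier. The sequences are from RefSeq, build GRCm38.p6, written 5′ to 3′ on the strand of the gene. They lie at chr10:89506659-89506908 (minus strand), chr16:32487880-32488129 (minus), chr19:43782058-43782307 (plus) and chr8:5105288-5105537 (minus). Capitals mark matches to 7 motifs searched on both strands.
Nr1h4: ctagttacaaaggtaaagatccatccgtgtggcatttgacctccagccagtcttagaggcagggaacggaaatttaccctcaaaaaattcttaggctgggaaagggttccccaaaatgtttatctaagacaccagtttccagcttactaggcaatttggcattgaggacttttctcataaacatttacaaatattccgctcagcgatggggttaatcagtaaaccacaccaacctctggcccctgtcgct
Slc51a: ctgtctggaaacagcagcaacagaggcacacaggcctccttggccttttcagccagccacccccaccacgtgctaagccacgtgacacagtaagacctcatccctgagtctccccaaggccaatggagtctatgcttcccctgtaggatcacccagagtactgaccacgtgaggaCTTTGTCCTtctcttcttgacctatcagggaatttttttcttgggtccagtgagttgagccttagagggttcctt
Abcc2: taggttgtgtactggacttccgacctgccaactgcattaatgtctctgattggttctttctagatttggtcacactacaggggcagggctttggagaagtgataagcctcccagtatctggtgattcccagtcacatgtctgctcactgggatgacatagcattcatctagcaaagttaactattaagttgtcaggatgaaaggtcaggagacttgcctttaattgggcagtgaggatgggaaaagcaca
Slc10a2: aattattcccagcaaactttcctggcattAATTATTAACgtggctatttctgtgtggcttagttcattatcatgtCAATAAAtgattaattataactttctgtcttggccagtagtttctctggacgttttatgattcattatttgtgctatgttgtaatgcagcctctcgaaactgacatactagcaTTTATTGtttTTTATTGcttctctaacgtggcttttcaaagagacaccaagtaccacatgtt

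RefSeq promoters were matched for 8 of the 10 genes; Abcc3 and Fgf15 were not among them. For HNF4 the letters CAAAGTNCA had no match in these 8, against 1.19% of all 32851 promoters in the table, and AGGNCAAAG, the core of a direct repeat, had one in Slc51a only, against 1.8% of all. The Slc51a match reads CTTTGTCCT, on the opposite strand, from 75 to 67 bases before the start. The FXR inverted repeat of half-sites with 1 base between them (0.0335% of all promoters), the LRH-1 motif CAAGGTCA (1.33%) and the GATA motif AGATAAG (2.74%) had none. Slc10a2 held a match to the HNF1 motif (0.371%), and 3 matches to TTTATNG, a motif of CDX factors (9.81%). These are matches of letters within a short window, the 2 HNF4 forms share the letters CAAAG, and distal elements are outside it.

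Slc10a2, Nr0b2, Fgf15 and Fabp6 were at or near background. As a measure of background, 6 probe sets of the Y-linked genes Eif2s3y, Uty, Kdm5d read −2.23 to 34.4, with a median of 13.9, in the 2 females, while Eif2s3y read 61.1 in the male null, 147 in the male control, 1.12 in the female null and −2.23 in the female control. Slc10a2, the brush border carrier, read 10.7 and 20.7 in the male and the female null, and 8.78 and 14.0 in the female and the male control, and values below follow that order. All of these lie within the range of the Y-linked genes in females, so no level is shown and no fold is given. Nr0b2, which encodes the repressor SHP induced by FXR, read 28.7 and 25.6 in the nulls and 24.2 and 21.4 in the controls, again within that range. Fgf15, the ileal hormone, read 43.0 in the male null and 30.8 in the male control, but 7.38 in the female null and 9.17 in the female control. The null and control values interleave, and 1 of the 4 lies above the background range. Fabp6 read 23.7 and 37.2 in the nulls and 53.8 and 21.3 in the controls, so that the 2 females alone were above the range.

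**Figure D1:**
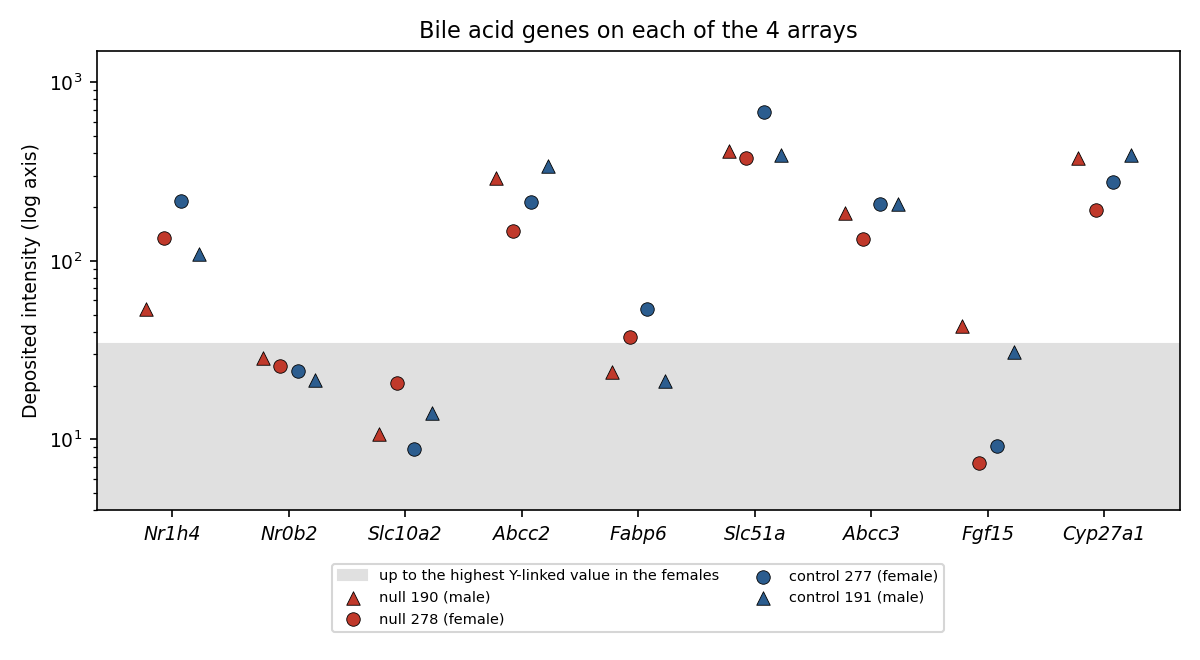
Deposited intensity (log axis) of the 9 bile acid genes on each array; red is null, blue control, triangles male and circles female, and the grey band ends at 34.4, the highest value of 6 Y-linked probe sets in the females. Nr0b2 and Slc10a2 lie within the band on all 4 arrays, Fabp6 and Fgf15 straddle its edge, and the other 5 genes lie above it.

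Nr1h4, Slc51a, Abcc2, Abcc3 and Cyp27a1 were above that range on every array. Nr1h4, the bile acid receptor itself, read 53.8 and 134.9 in the nulls and 215 and 108 in the controls. The highest value was a control and the lowest a null, but the female null was brighter than the male control, so the groups overlapped. On the log2(intensity + 16) scale, after normalization between arrays, its level was 6.71 ± 0.63 in the nulls and 7.38 ± 0.61 in the controls (SD, n = 2 each). The difference of −0.67 (SE 0.40, 95% interval −1.62 to 0.28) had an adjusted p of 0.9998 in limma. Between the males it was −0.68 and between the females −0.66, while the males were lower than the females in both genotypes, by 0.89 in the nulls and 0.87 in the controls. With sex as a block its unadjusted p was 0.0145 and its adjusted p 0.722 in limma. Its size depended on single animals, at −0.22 without the male null, −0.23 without the female control, −1.12 without the female null and −1.11 without the male control.

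Slc51a encodes the alpha chain of the basolateral exporter, and the probe set's suffix marks probes that may match more than a single transcript. It read 412 and 377 in the nulls and 681.5 and 393 in the controls. The female control was high and the other 3 arrays were close together. The log2 levels were 8.70 ± 0.15 in the nulls and 9.04 ± 0.52 in the controls (SD, n = 2 each), a difference of −0.34 (SE 0.27, 95% interval −0.98 to 0.29; adjusted p = 0.9998 in limma). It was 0.13 between the males, −0.82 between the females, and 0.02 without the female control, which turned its direction.

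Abcc2 and Abcc3 encode the export pumps MRP2 and MRP3, which carry conjugated organic anions across the apical and the basolateral membrane respectively. The Abcc2 probe set has the same suffix as that of Slc51a, so its probes too may match more than a single transcript. Abcc2 read 290.4 and 147 in the nulls and 213 and 339 in the controls, the 2 males above the 2 females whatever the genotype. Its log2 difference was −0.33 (SE 0.39, 95% interval −1.27 to 0.61; adjusted p = 0.9998 in limma), with −0.12 between the males against −0.53 between the females. It turned to 0.21 without the female null and to 0.0082 without the male control. Abcc3 was the one member tested whose groups did not overlap. It read 184 and 133 in the nulls and 209.1 and 209.02 in the controls, so both controls were nearly equal and the female null was the lowest. Its log2 levels were 7.44 ± 0.44 and 7.79 ± 0.02 (SD, n = 2 each) and its difference −0.35 (SE 0.26, 95% interval −0.96 to 0.27; adjusted p = 0.9998 in limma). That difference came mostly from 1 animal, being −0.05 between the males, −0.64 between the females and −0.04 without the female null. Among all probe sets tested, 16.3% had both nulls below both controls, so 1 of 6 members is near the background.

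Fabp6, the cytosolic bile acid binding protein, was bright enough for the test although close to background. Its log2 levels were 5.55 ± 0.13 in the nulls and 5.65 ± 0.63 in the controls (SD, n = 2 each). The difference was −0.11 (SE 0.34, 95% interval −0.93 to 0.72; adjusted p = 0.9998 in limma), with 0.25 between the males, whose values both lie within the background range, −0.46 between the females, and 0.34 without the female control.

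Cyp27a1, a mitochondrial enzyme that oxidises the cholesterol side chain in the alternative route of bile acid synthesis, read 375 and 192 in the nulls and 276.5 and 390.3 in the controls. As with Abcc2, both males were above both females, and the lowest value was the female null. The log2 levels were 8.15 ± 0.74 and 8.41 ± 0.36 (SD, n = 2 each), a difference of −0.25 (SE 0.37, 95% interval −1.13 to 0.62; adjusted p = 0.9998 in limma). It was 0.02 between the males, −0.52 between the females, 0.28 without the female null and 0.0011 without the male control.

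No member passed the threshold between null and control. Of the 6 tested, 0 had an adjusted p under 0.05 in limma and 0 an unadjusted p under 0.05, while 2 of all 15838 probe sets passed (0.0126%), 1 higher and 1 lower in the nulls (0.00631% each), and 480 had an unadjusted p under 0.05. With sex as a block 0 members and 29 probe sets (0.183%) passed in limma. All 6 had a null mean below the control mean, with a median difference of −0.34. Over all 9546 genes tested, 49.7% were lower and the median was 0.0013. The shared direction holds only after the brightness filter, since without it 6 of 9 members were lower. Nr0b2, Slc10a2 and Fgf15, which the filter left out, had higher null means, mostly from values within the background range. Of the 6 tested, 3 (Nr1h4, Abcc2 and Abcc3) were lower in both pairs, against 25.7% of all probe sets tested. None was higher in both pairs, against 22.6%, and the other 3 (Fabp6, Slc51a and Cyp27a1) had opposite directions in the pairs, against 51.8%. For Cyp27a1 the difference between the males was only 0.018, and its direction depended on the normalization. In the fit without sex, the intervals of all 6 include 0 and reach −0.93 or lower. That fit, whose spread within groups includes the gap between males and females, cannot tell a fall of that size from no difference. With sex as a block the SE was 0.20 to 0.32, against 0.26 to 0.40 without. In that block fit the unadjusted p of Nr1h4 was 0.0145 and its adjusted p 0.722 in limma.

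**Figure D2:**
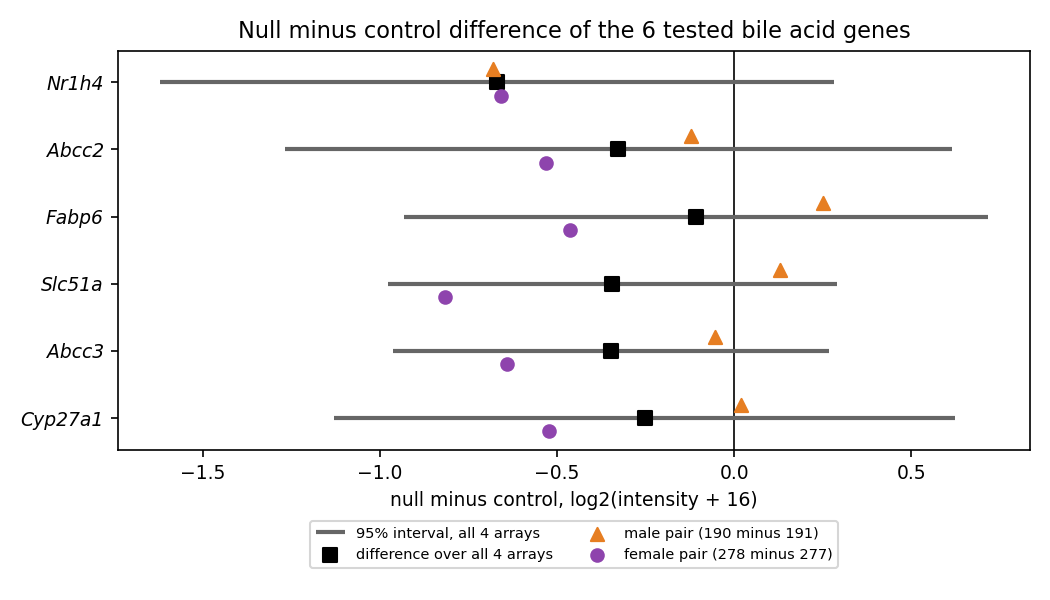
Null minus control difference on the log2(intensity + 16) scale for the 6 tested genes, with squares and bars for the value over 4 arrays and its 95% interval, triangles for the male pair and circles for the female pair. All 6 intervals, from the fit without a term for sex, cross 0. Nr1h4 gives −0.68 and −0.66 in the pairs, and for the other 5 the female pair is the lower.

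The differences below 0 were found mainly between the females, where the control carried Cre and a wild-type allele, while the male control had no Cre and a minus allele, so sex and control genotype cannot be told apart. The median over the 6 members was −0.02 between the males but −0.59 between the females. Over the same pairs enterocyte markers had medians of −0.02 and −0.22 and smooth muscle markers (9 of 10 tested, summed intensity 2562 to 3423 in the nulls and 2644 to 2676 in the controls) had medians of −0.22 and 0.66. All 7 goblet cell markers with a probe set, of 8 listed, were higher in the nulls in both pairs (median 0.50, summed intensity 20734 to 23152 in the nulls and 17497 to 18164 in the controls), and none of the 7 passed in limma. The summed pancreatic markers (6 of 8 with a probe set) read 688 to 1010 in the nulls and 642 to 710 in the controls. The part of these marker levels in the member values was not tested.

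The gap between the males and the females was larger than that between genotypes for 4 of the 6 members, as it was for 56.6% of all probe sets tested. Abcc2 was higher in the males by 0.87 (SE 0.20, 95% interval 0.42 to 1.32) and Cyp27a1 by 0.78 (SE 0.20, 0.34 to 1.22), and Nr1h4 was lower by 0.88 (SE 0.23, interval of male minus female −1.39 to −0.37). The gaps for Fabp6, Slc51a and Abcc3 were −0.54, −0.26 and 0.33. In the limma fit with terms for genotype and sex, a test added after seeing the data, the adjusted p was 0.133 for Abcc2, 0.187 for Cyp27a1 and 0.1996 for Nr1h4, so none of the members passed, while 84 of all probe sets did (0.53%). Of the 6 tested, males did not overlap females in 4, above for Abcc2 and Cyp27a1 and below for Nr1h4 and Fabp6; 17.9% of all probe sets had both males above both females and 22.3% both below. Among the untested members, Fgf15 was also higher in both males than in both females, with 1 of the 4 values above the background range. Animal numbers are adjacent within each sex, so sex cannot be told apart from whatever those numbers share or from the genotype of the controls.

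Genes that detoxify bile acids and other lipophilic compounds showed a gap between the sexes too. All 16 genes of this list with a probe set, of 20 listed, were higher in the males on their brightest probe sets. Of all 9546 genes tested, 4788 were higher. The median of the 16 was 0.60, and 5 passed in limma, where 32 of all genes tested passed as higher in the males. Other tested probe sets of Ugt2b34 (−0.12) and Papss2 (−0.22 and −0.04) were lower in the males, while those of other genes in the list were higher. The 5 that passed were Cyp2b10 at 2.47 (SE 0.25), Sult1a1 at 1.61, Cyp3a25 at 1.16, Ces2a at 1.00 and Cyp3a11 at 0.87. Sult1a1 read 28.05 in the female null, within the background range, and 35.62 in the female control, just above it. The size of its gap is therefore uncertain. Cyp2b10 and Cyp3a11 are known targets of the xenobiotic receptors CAR and PXR, which are also known to act on Abcc2. Whether these receptors had a part in the gaps was not tested. Cyp2b10 read 345.5 in the male null and 620.5 in the male control, against 88.0 in the female null and 66.6 in the female control. With each array scaled to a common median, 4 of the 5 passed. The fit had 1 residual degree of freedom. None of the 5 passed without an intensity trend in the prior or without a genotype term, where 3 and 6 probe sets passed in all. The median over all genes was 0.0012.

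**Figure D3:**
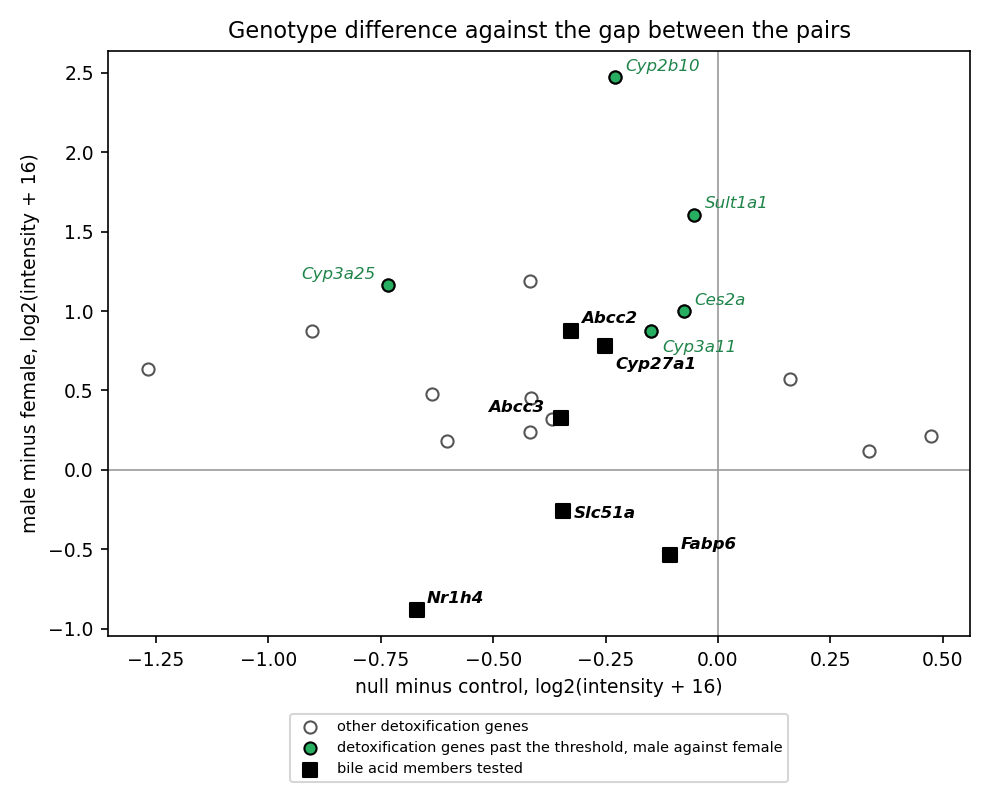
Null minus control (horizontal) against male minus female (vertical), both on the log2(intensity + 16) scale, for the 6 tested members (black squares) and 16 detoxification genes (circles, green where the male against female test passed). On their brightest probe sets, all 16 detoxification genes lie above 0 on the vertical axis. So do Abcc2, Cyp27a1 and Abcc3, and Nr1h4 is the lowest point at −0.88.

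Other genes of the pathway were given by lists, none of which had a member past the threshold between null and control in the fit without sex. With sex as a block 1 gene passed, the distal gene Cubn given below. Over all genes tested, 49.7% were lower in the nulls. Of the receptors and their partners, 12 of 16 were tested and 6 were lower, with a median of −0.01. The smallest p values were those of Nr1i3, which encodes CAR, at −1.22 (SE 0.25), from 35.4 and 43.6 in the nulls against 97.1 and 139.0 in the controls, and Ppara, a receptor for fatty acids, at −0.63 (SE 0.31). Bile acid synthesis and conjugation had 11 of 16 genes tested, 6 of them lower, with a median of −0.04. Its leading genes act in peroxisomal side chain oxidation, Hsd17b4 at −0.58 (SE 0.19) and Acox2 at −0.54 (SE 0.23). The Acox2 nulls, 28.2 and 31.2, lie within the background range, so the size of its difference is uncertain. Other carriers of bile acids and sterols had 11 of 17 tested, 5 lower and a median of 0.17, with Abcg2 at −0.51 (SE 0.22) and Abca1 at −0.51 (SE 0.23). Another probe set of Abca1, nearly as bright, gave 0.21 (SE 0.42), so the direction of Abca1 depends on the probe set. Its remaining probe set gave 0.38 but read 5.05 to 15.6, within the background range, and was not tested. Detoxification had 13 of 16 lower in the nulls and a median of −0.39, with the glutathione transferase Gsta3 at −1.27 (SE 0.32) and Cyp3a13 at 0.47 (SE 0.15).

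Because Slc10a2, Fgf15 and Fabp6, known from the ileum, were dim while Slc51a was bright, genes of gut segments were set beside them. All 6 tested genes known from distal small intestine, of 7 listed, were lower in the nulls, against 49.7% of all genes tested. Their median was −0.54, with −0.50 and −0.59 in the male and female pairs. Gcg and Pyy differed by less than their SE, at −0.13 (SE 0.20) and −0.07 (SE 0.24). This list was chosen with earlier results of these data known, so its count is not independent support. Cubn, the receptor for intrinsic factor, was at −1.35 (SE 0.24) and passed with sex as a block (adjusted p = 0.0216 in limma), and the peptide gene Nts was at −1.61 (SE 0.33). Of 12 proximal genes tested, of 13 listed, 7 were lower, with a median of −0.04, and the hormone genes Ghrl and Cck stood at 1.70 (SE 0.38) and 0.71 (SE 0.26). The Ghrl controls, 6.57 and 27.7, lie within the background range, so its size is uncertain. Transcription factors of segment and enterocyte identity had 11 of 14 tested, 5 lower, with a median of 0.04 and Gata6 and Foxa3 at −0.29 and 0.25. Whether the arrays differed in the segment sampled was not tested.

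**Figure D4:**
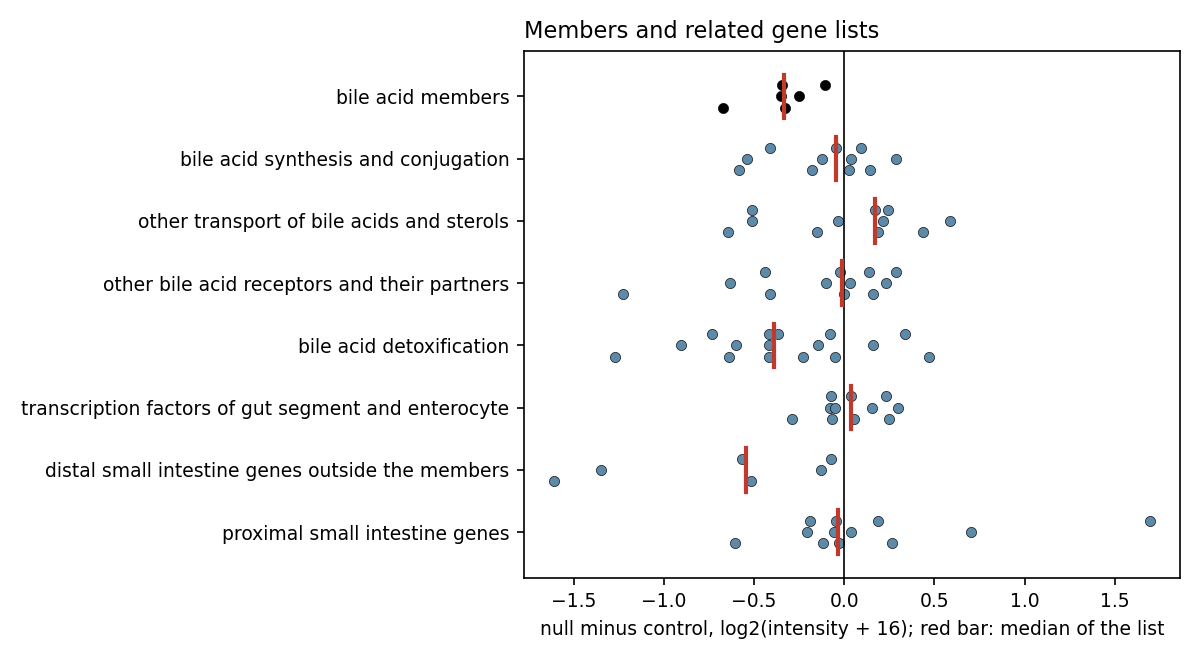
Null minus control difference on the log2(intensity + 16) scale of each tested gene (points, 1 probe set per gene) in the bile acid members and 7 related lists, with red bars at the medians. The medians are −0.34 for the members, −0.54 for distal genes, −0.39 for detoxification and −0.04 to 0.17 for the other 5 lists.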

How the data were processed

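Total RNA from small intestine of 4 mice was biotin-labelled and hybridised to Affymetrix arrays, per the labels' protocols. The authors deposited 1 intensity per probe set on a linear scale; how it was summarised, background corrected and scaled is not given in the sources used here. Of 22626 probe sets besides 64 controls, 20380 had 1 gene in the annotation, 691 several and 1555 none. Array medians on the log2(intensity + 16) scale differed by 0.23, over the limit of 0.2, so intensities were quantile normalized, values below 0 became 0, and log2 was taken of intensity + 16, which understates changes of dim probe sets. The dimmest 30% by mean were left out, leaving 15838. Groups were compared in limma 3.58.1 (R 4.3.3) with lmFit and eBayes with an intensity trend, two-sided, with p-values adjusted by Benjamini and Hochberg's method across these 15838 and a threshold of 0.05. Residual degrees of freedom were 2, with 4.65 added by the prior. The script was tested on simulated data. An exact permutation test of 2 against 2 cannot go below p = 0.333 and was not used. The number of arrays limits the precision.

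All 9 member probe sets are named; of each list, genes past the threshold and otherwise the 2 with the smallest p are named, and a gene is represented by its brightest probe set. Members and lists were chosen with earlier results of these data known. Alternatives were other scalings, pseudocounts, filters and priors, sex as a block and leaving out each animal.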

Additional observations from a re-analysis of the deposited data

Results flagged for a closer look

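For 3 of the 6 tested members the null minus control difference pointed opposite ways in the 2 sexes, on the log2(intensity + 16) scale, with 1 null and 1 control in each. Fabp6 gave 0.25 between the males and −0.46 between the females. Slc51a gave 0.13 and −0.82, and Cyp27a1 gave 0.018 and −0.52, in the same order. The deposited values of Cyp27a1 in the males, 375 in the null and 390 in the control, run the other way. Its direction between the males therefore depends on the normalization and is not measured. The male pair of Fabp6, 23.7 against 21.3, lies within the background range, so its direction is not measured. The control was loxP/+ with Cre in the females and loxP/- without Cre in the males, so sex and control genotype cannot be told apart. The difference between the pairs was not tested, since 4 arrays leave no residual degrees of freedom for it, and 51.8% of all probe sets tested had opposite directions in the pairs.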

How the results depend on the processing

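The labels give no shared replicate numbers, so the paired fit was that with sex as a block, with 1 residual degree of freedom. The count of probe sets called was 29 with sex as a block, 1 without an intensity trend and 0 to 35 when 1 animal was left out, at 0 without the male control (205 at an unadjusted p under 0.05), 3 without the female control, 10 without the female null and 35 without the male null; it stayed at 2 under the other 6 alternatives. With 1 animal left out, the lone array of a group is assumed to vary like the other group. The count of member probe sets called in limma was 0 under all 12, and at an unadjusted p under 0.05 it was at most 3, without the male null. Of 108 member differences recomputed, 96 kept their direction and side of the threshold or moved by less than the spread. Of the rest, 6 were of tested genes and turned direction. With 1 animal left out Abcc2 ranged from −0.86 to 0.21 and Cyp27a1 from −0.77 to 0.28, both highest without the female null and at 0.0082 and 0.0011 without the male control. Fabp6 ranged from −0.55 to 0.34 and Slc51a from −0.71 to 0.022, both highest without the female control. The other 6 were of the untested Slc10a2, which kept its direction, and Fgf15, which turned without the male null and without the female control; most of their values lie within the background range and have no measured size. Nr1h4 and Abcc3 were below 0 under all 12 alternatives, from −1.12 to −0.22 and from −0.65 to −0.04. The count between males and females was 84 and ranged from 3 without an intensity trend to 183 without normalization between arrays. With so few arrays and no detection calls, Slc10a2 and Nr0b2 have no measured level, and those of Fabp6 and Fgf15 are measured on only some arrays.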

Other observations

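Car4, a carbonic anhydrase from the list of colonocyte markers that is also known from small intestinal enterocytes, was singled out after its values were seen. On its brighter probe set the male null read 351, the female null 32.9, the female control 437 and the male control 606, and the other probe set gave 298, 35.1, 324 and 428. The female null was thus the low array on both, near the background range, and the null minus control difference of −1.98 (SE 0.88) on the log2 scale did not pass in limma (unadjusted p = 0.0612).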
